A study of Homo sapiens with 16 samples.

Results

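The human genes described here are those that span 200 kb or more of the genome. In the deposited table each gene is 1 interval, from the start to the end of a RefSeq transcript with its introns, and reads anywhere inside it are counted. Of 18093 intervals, 1108 were at least 200000 bases long, and the 1102 of them with a summed count of at least 100 over all libraries are the members. They ran from 200055 to 2298758 bases, with a median of 315849, and together covered 447.6 Mb. A total of 229 reached 500 kb and 46 reached 1 Mb. Their summed counts ran from 219 to 787194, with a median of 5137, and all 1102 passed the filter on low counts in both comparisons below. They were set beside the 6922 intervals of 20 to 100 kb with the same minimum count. The length limit falls in a continuum: FREM2 (200055 bases), ST6GALNAC5 (200068) and GLI2 (200374) lay just inside it, with log2 folds against DMSO 3 and 4 of -0.05, 0.03 and -0.15. LRCH1 (199872), FUT9 (199640) and TULP4 (199361) lay just outside, with 0.13, 0.41 and 0.22.

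The cells were HL60, a line established from a human acute promyelocytic leukaemia. They were kept for 5 h in 50 nM SY-351, a CDK7 inhibitor, or for the same time in the solvent DMSO alone, and polyadenylated RNA was sequenced. Each group had 4 numbered replicates, each listed with 2 technical repeats, so that 16 records stand behind 8 libraries. Nothing in the labels says that the replicates were separate cultures, so a p-value here covers no more than the variation among these libraries. The study asked what CDK7, within the general transcription factor TFIIH, does in transcription.

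CDK7, with cyclin H and the assembly factor MAT1 (gene symbol MNAT1), phosphorylates the tail of RNA polymerase II as it leaves a promoter and also activates other kinases, among them CDK9, which releases paused polymerase. A very long gene takes the polymerase hours to cross, almost all of it intron. The exons of such a gene make up a small part of it, so that reads of unspliced or prematurely ended transcripts can weigh as much as those of the finished mRNA in a count over the whole interval. Long genes are known for neuronal adhesion and synapse proteins, for cytoskeletal scaffolds and for the common fragile sites, where replication of a long transcription unit fails under stress.

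Most of the granulocytic markers of the line were clearly present in all 8 libraries: MPO, the peroxidase of granules, lay between 12117 and 48116 counts per 1 M counts (CPM; here and below TMM-scaled, that is, corrected for composition). SPI1 lay between 272 and 2690 CPM, CEBPA between 85.9 and 4331, CTSG between 19.4 and 670 and CD33 between 3.1 and 86.4, while CD3E, HBB, EPCAM and ALB stayed at or under 3.4. CD33 was low in DMSO 1 and 2, at 5.64 and 3.1 CPM, the latter within the range of CD3E. Library totals were 103.7 to 124.2 M counts with DMSO and 43.3 to 77.9 M with SY-351. DMSO 1 and 2 stood apart from DMSO 3 and 4. Their composition factors were 0.661 and 0.657 against 1.606 and 1.208, and the long intervals held 2.13% and 2.18% of their counts against 3.96% and 3.39%. The SY-351 libraries held 3.65%, 3.81%, 3.92% and 4.16%. Of the 458 members with at least 20 counts per kb, 164 had a mean in DMSO 3 and 4 within 2-fold of that in DMSO 1 and 2, while 70 had a mean at least 10 times as high and 73 a mean below 0.5 times. What sets these libraries apart was not tested. Results are therefore given against all 4 DMSO libraries and against DMSO 3 and 4 alone. The 2 comparisons share the SY-351 libraries and are not independent.

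Promoters of long genes are shown first, since transcription of an interval begins there. RefSeq promoters (250 bases before to 50 after the start, 300 in all, GRCh38.p14) were matched for 906 members, and for 596 of them the promoter lay at the start of the interval. Both strands were searched for 4 short motifs. The GC box was read as GGGCGG, and the CCAAT box as the letters of its name. The TATA motif was read as TATAAA, and the E-box motif as the palindrome CACGTG. A GC box was found in 66.4% of the 596 and in 43.4% of the 27305 promoters of the table. A TATA box was found in 6.38% against 12.3%, a CCAAT box in 31.7% against 35.4% and an E-box in 6.21% against 7.19%. Promoters of long genes had a median GC content of 66.7% and 27 CpG, against 58% and 12 for all. The 596 had passed the count limit and the start match, which the 27305 had not. Promoters of 20 to 100 kb intervals were not compared, so whether these traits belong to long genes in particular was not tested. Among members with at least 20 counts per kb, a GC box was found in 72.3% of the 112 whose interval was called higher against DMSO 3 and 4 and in 67.9% of the 28 called lower. Promoters of some larger changes, such as the rises of EML6 and KCTD16 and the falls of RNF220 and ZMIZ1, are not shown. The 4 sequences below belong to intervals called in both comparisons without an overlapping row, FMNL2 and SGCD higher and PHLPP1 and SIPA1L3 lower. For all 4 the call with all 8 libraries ended when some single libraries were left out. The sequences lie on the + strand at chr2:152334924-152335223, chr5:156326914-156327213, chr18:62715291-62715590 and chr19:37906958-37907257, and capitals mark GC boxes and CCAAT boxes on either strand.
FMNL2: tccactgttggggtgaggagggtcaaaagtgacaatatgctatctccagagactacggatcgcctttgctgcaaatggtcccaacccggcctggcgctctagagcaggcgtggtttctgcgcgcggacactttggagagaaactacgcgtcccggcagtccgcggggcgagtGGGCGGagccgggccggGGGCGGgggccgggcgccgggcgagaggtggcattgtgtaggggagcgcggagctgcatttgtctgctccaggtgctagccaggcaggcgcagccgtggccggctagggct
SGCD: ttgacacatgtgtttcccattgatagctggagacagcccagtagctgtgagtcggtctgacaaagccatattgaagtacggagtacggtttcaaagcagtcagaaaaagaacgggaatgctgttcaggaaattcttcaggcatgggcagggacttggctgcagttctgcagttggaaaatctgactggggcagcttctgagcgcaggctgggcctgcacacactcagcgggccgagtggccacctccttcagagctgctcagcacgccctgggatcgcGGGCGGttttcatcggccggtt
PHLPP1: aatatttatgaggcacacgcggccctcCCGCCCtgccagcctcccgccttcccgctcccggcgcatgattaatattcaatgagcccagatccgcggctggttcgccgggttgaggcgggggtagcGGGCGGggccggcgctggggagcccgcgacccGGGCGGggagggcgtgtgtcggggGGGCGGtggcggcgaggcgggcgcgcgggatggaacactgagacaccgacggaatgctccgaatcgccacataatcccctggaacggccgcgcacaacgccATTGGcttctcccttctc
SIPA1L3: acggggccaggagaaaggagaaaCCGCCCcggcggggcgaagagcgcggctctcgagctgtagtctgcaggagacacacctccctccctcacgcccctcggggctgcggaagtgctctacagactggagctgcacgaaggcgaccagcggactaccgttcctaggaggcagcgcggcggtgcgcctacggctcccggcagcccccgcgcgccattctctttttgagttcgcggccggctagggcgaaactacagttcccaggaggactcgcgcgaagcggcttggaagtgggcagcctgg
FMNL2 and PHLPP1 have GC-rich starts with 27 and 37 CpG, and 2 and 4 GC boxes. SGCD has 13 CpG and 1 GC box, and SIPA1L3 has 32 CpG and 1 GC box. NR6A1, another rise called in both comparisons, has 26 CpG and 0 GC boxes. None of the 4 holds a TATAAA or CACGTG match in this window.

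Reads lay thinly over most long intervals. Counts per kb, summed over all 8 libraries, fell into a low group and a spread of higher values, and 644 members had under 20 counts per kb (median 6.17) while 458 had at least 20 (median 73.9, 10th to 90th percentile 26.8 to 322). The limit of 20 was chosen after seeing the data. Of the intervals of 20 to 100 kb, 1865 had under 20 (median 7.15) and 5057 had at least 20 (median 502). Among members with an exon annotation, a median of 1.48% of the interval was exon, against 7.65% for intervals of 20 to 100 kb.

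**Figure D1:**
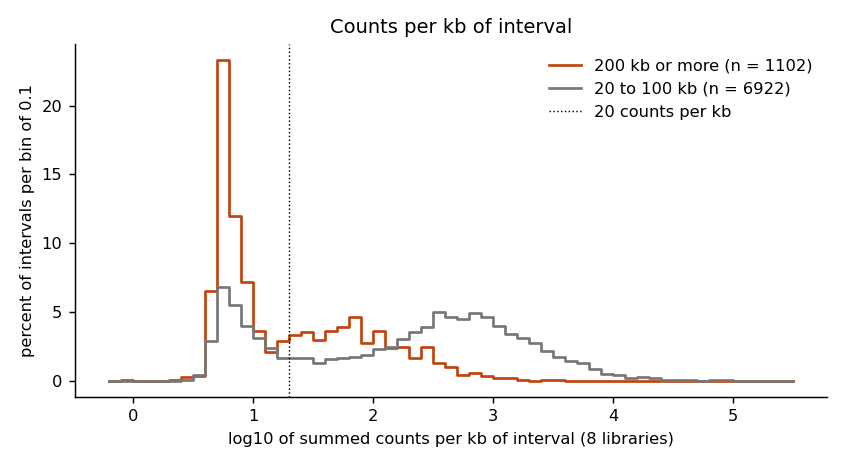
Percentage of intervals (vertical axis) by log10 of the counts per kb summed over the 8 libraries (horizontal axis, classes of 0.1) for the 1102 long intervals (orange) and the 6922 intervals of 20 to 100 kb (grey). The dotted line marks 20 counts per kb; 644 long intervals lie below it, around a median of 6.17.

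The level of the thin members varied between libraries within each group. Their median level per Mb of interval was 4, 4.16, 12.5 and 4.85 CPM in DMSO 1 to 4, and 8.23, 7.9, 8.57 and 11.6 CPM in SY-351 1 to 4. DMSO 3 was the highest of all 8 and SY-351 4 the highest of its group. In 66% of the thin members the value in DMSO 3 was over 2 times that in DMSO 4, and in 0% of the denser ones. Intervals of 20 to 100 kb with under 20 counts per kb had the same order of libraries, from 4.75 in DMSO 1 to 13.8 in DMSO 3. The denser members had medians of 48, 45.5, 86.5 and 107 CPM per Mb with DMSO and 110, 114, 120 and 117 with SY-351. With this TMM scaling every SY-351 library lay above every DMSO library, DMSO 4 closely. The order of libraries by total count was not computed. By total count the median log2 fold of the denser members was -0.13 against DMSO 3 and 4, with 26.6% called higher and 42.8% lower. Against all 4 DMSO libraries it was 0.47. The density limit counts both groups, so an interval that rose can pass it through its SY-351 counts. For 20 to 100 kb intervals of that density the medians were 381, 364, 614 and 823 with DMSO and 548, 559, 552 and 530 with SY-351, between the 2 pairs of DMSO libraries.

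**Figure D2:**
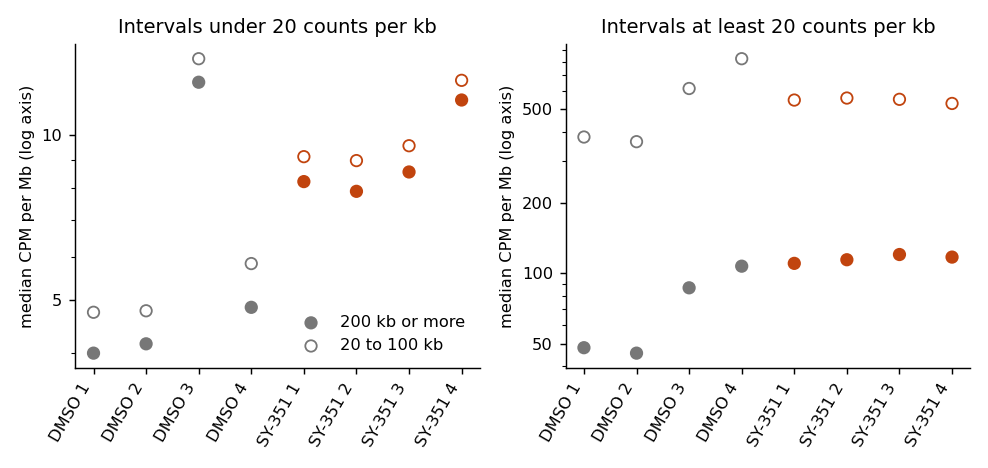
Median level of long (filled) and 20 to 100 kb (open) intervals in each library, in TMM-scaled CPM per Mb of interval on a log axis, for intervals under 20 counts per kb (left) and at least 20 (right); grey is DMSO and orange SY-351. On the left DMSO 3 is the highest library for both lengths. On the right the SY-351 libraries are at 110 to 120 for long intervals. With this scaling they lie above the DMSO libraries at 45.5 to 107, and the order by total count was not computed.

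Against all 4 DMSO libraries, 44 of the 1102 long intervals were called higher with SY-351 and 15 lower (edgeR adjusted p below 0.05). That is 3.99% and 1.36% of the members, where 2.91% of all 15475 intervals tested were called higher and 13.6% lower, and of the 20 to 100 kb intervals 2.84% and 11.3%. By total count 12 members were higher (1.09%) and 24 lower (2.18%), beside 1.39% and 16.1% of all intervals. The median log2 fold of the members was 0.50 and that of all intervals 0.00. In bulk RNA a change in which cells are present and a change in RNA per cell cannot be told apart. With every SY-351 library left out in turn the count called higher fell to 6 or 7, and without DMSO 3 it was 440, so this comparison turns on single libraries.

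Against DMSO 3 and 4 alone, 289 long intervals were higher (26.2%), 67 were lower (6.08%) and 746 were not called. Of all 15814 intervals tested, 21.9% were higher and 26.4% lower, and of the 20 to 100 kb intervals 19.4% and 27.6%. With TMM, the share called lower among the members was well below the background and the share called higher a little above it. A total of 43 members were higher and 15 lower in both comparisons. At least 2-fold, 81 were higher and 13 lower. The direction of a fold depends on the scaling. Scaling by total count instead of TMM moved the median log2 fold of all intervals from 0.01 to -0.45 and that of the members from 0.17 to -0.34. It called 129 members higher (11.7%, background 13.1%) and 223 lower (20.2%, background 43.3%), so that 36.6% of the members' calls were higher in place of 81.2%. The share called higher was then a little below the background. Of the 289 called higher 129 were also higher by total count, and of the 67 called lower 63 were also lower. Relative to the median of all intervals the long ones stood above it by either scaling.

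Most of the calls came from the denser members. Of the 458 with at least 20 counts per kb, 202 were higher (44.1%) and 51 lower (11.1%) against DMSO 3 and 4, and their median log2 fold was 0.31. Of the 5057 intervals of 20 to 100 kb at that density, 24.8% were higher and 37.4% lower, with a median of -0.12. By total count the medians were -0.13 and -0.54, with 26.6% higher and 42.8% lower for the long against 14.5% and 62.9%. The limit is on counts of both groups together, so an interval that rose can pass it through its SY-351 counts. With the same limit read from DMSO 3 and 4 alone (6.77 counts per kb, scaled to their share of all counts), 207 of 482 members were higher (42.9%) and 58 lower (12%). Read from DMSO 1 and 2 (5.92 counts per kb), which are not part of this comparison, 83 of 246 were higher (33.7%) and 33 lower (13.4%), beside 24.6% and 38.4% of the 20 to 100 kb intervals chosen in the same way. Among the 644 thin members 87 were higher (13.5%) and 16 lower (2.48%), with a median of 0.09, beside 4.61% and 1.13% of the thin 20 to 100 kb intervals, with a median of 0.07. Without DMSO 3, which is the highest library of the thin members, their median was 0.85, and without DMSO 4 it was -0.34.

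To compare at matched expression, all tested intervals were cut into 10 classes (deciles) of mean log2 CPM, and within each decile the median log2 fold of 20 to 100 kb intervals was subtracted from that of the long ones. Averaged over the 8 deciles that held enough of both, the long intervals lay 0.50 above the shorter ones with all 8 libraries (SD of the same difference between libraries 0.26) and 0.28 above against DMSO 3 and 4 (SD 0.32). Against DMSO 3 and 4 the matched 20 to 100 kb intervals were called higher in 24.1% and lower in 34.6%, the long ones in 26.3% and 6.08%. The difference was negative in deciles 3 and 4, the lowest with members (-0.38 and -0.08), and positive in the others. It was 0.47, 0.73 and 0.60 in deciles 5, 6 and 7, and smaller again at the highest expression, with 0.57, 0.37 and 0.15 in deciles 8, 9 and 10. Matching on counts per kb in place of mean CPM gave 0.26 and 0.17 for the 2 comparisons, and comparing with intervals of 50 to 100 kb gave 0.24 and 0.12. In the fifth decile 21.3% of long intervals were higher and 3.24% lower, beside 20.5% and 45.2% of shorter ones. In the sixth it was 45% and 11.6% beside 16.7% and 50.2%.

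**Figure D3:**
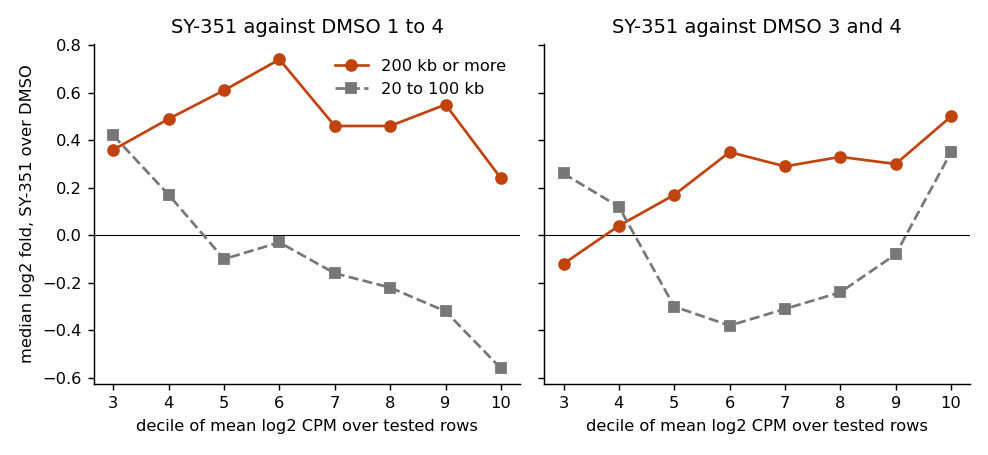
Median log2 fold, SY-351 against DMSO, of long (orange circles) and 20 to 100 kb (grey squares) intervals in deciles 3 to 10 of mean log2 CPM, against DMSO 1 to 4 (left) and DMSO 3 and 4 (right). Against DMSO 3 and 4 the long intervals lie below the shorter ones in deciles 3 and 4 and above them in deciles 5 to 10.

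For members with at least 20 counts per kb, matched to 20 to 100 kb intervals of at least that density, the difference was 0.71 with all 8 libraries and 0.48 against DMSO 3 and 4, the latter positive in 6 of 6 deciles. It was 0.54 without DMSO 3, 0.38 without DMSO 4, 0.93 with DMSO 1 and 2 as the only controls, 0.48 to 0.50 without any 1 SY-351 library and 0.49 by total count. With the density limit read from DMSO 3 and 4 alone it was 0.47, and from DMSO 1 and 2 alone 0.29. Taken library by library, as the level of dense long intervals relative to matched shorter ones, it was -0.59, -0.57, -0.13 and -0.32 in DMSO 1 to 4 and 0.25, 0.29, 0.32 and 0.34 in SY-351 1 to 4. The groups did not overlap, but an interval that rose can pass the density limit through its SY-351 counts. Values by library were not computed with the limit read from DMSO libraries. Over all members, thin ones included, the same values were -0.28, -0.23, 0.25 and -0.58 with DMSO and 0.10, 0.06, 0.13 and 0.39 with SY-351. There the groups overlapped through DMSO 3, and without DMSO 4 the matched difference against DMSO 3 was -0.05. With thin intervals alone it was -0.50 against DMSO 3 and 4 and -0.19 against all 4.

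Over all members the share called higher against DMSO 3 and 4 had no order by length, with 24.2% at 200 to 300 kb, 29.8% at 300 to 500 kb, 24.6% at 500 kb to 1 Mb and 26.1% at 1 Mb or more. Within the dense members alone it was larger in longer classes, 36.9% of 268 intervals of 200 to 300 kb, 52.4% of 143 of 300 to 500 kb, 59.5% of 42 of 500 kb to 1 Mb, and 3 of the 5 of 1 Mb or more. The share called lower was 14.2%, 7.69%, 4.76% and 0% in the same order. The median log2 fold was 0.24, 0.42, 0.57 and 1.37. In the thin members the medians were 0.05, 0.13, 0.09 and 0.23. Density differs between the classes, with a median of 85.4 counts per kb in the shortest dense class and 32.6 in the longest, and its part in this order was not tested. With the density limit read from DMSO 3 and 4 alone the shares called higher were 37.2%, 49%, 55.3% and 3 of 5, and read from DMSO 1 and 2 they were 30.4%, 37.7%, 6 of 10 and 0 of 1.

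**Figure D4:**
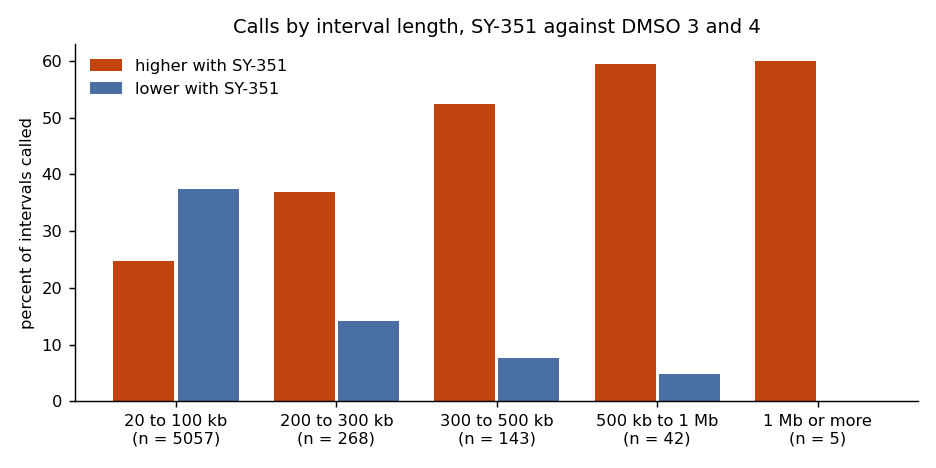
Percentage of long intervals called higher and lower against DMSO 3 and 4 (edgeR adjusted p below 0.05) by length class, for intervals with at least 20 counts per kb; the first pair of bars is the 5057 intervals of 20 to 100 kb. The share called higher goes from 36.9% at 200 to 300 kb to 59.5% at 500 kb to 1 Mb, and the longest class holds only 5 intervals.

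The members with the largest rise were EML6 and KCTD16. EML6 (chr2, 54725011 to 54972020, 41 exons), a microtubule-binding protein of the EMAP family, was at 2.44, 3.47, 8.11 and 6.96 CPM with DMSO and at 147, 147, 183 and 178 CPM with SY-351. Every SY-351 library was far above every DMSO library. The log2 fold was 4.46 (SE 0.21; adjusted p = 3.04e-101, edgeR) against DMSO 3 and 4 and 4.96 (adjusted p = 0.00288, edgeR) against all 4. SPTBN1, a spectrin gene that ends 53565 bases upstream on the same strand, was at 129 to 199 CPM with DMSO and 125 to 145 with SY-351 (log2 fold -0.35, edgeR adjusted p = 0.0554). KCTD16 (chr5, 144170872 to 144485686, 4 exons), an auxiliary subunit of GABA-B receptors, was at 1.48, 1.01, 7.5 and 5.53 CPM with DMSO and 93, 92.9, 108 and 102 with SY-351. The 4 treated libraries lay within a narrow range and the log2 fold was 3.95 (SE 0.20; adjusted p = 7.45e-84, edgeR). LRRIQ1, a leucine-rich repeat and IQ motif gene of little known function, was at 0.705, 0.661, 3.03 and 1.62 CPM with DMSO and at 13.4, 13.3, 20.5 and 45.4 with SY-351. SY-351 4 was over 2 times the other treated libraries. Its log2 fold of 3.32 (SE 0.85; adjusted p = 0.0367, edgeR) lost its call without any 1 of DMSO 3, DMSO 4 or SY-351 1, 2 or 3 (largest adjusted p = 0.132, edgeR), while without SY-351 4 it was 2.75 (adjusted p = 4.03e-34, edgeR).

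Some of the risers are better known from neurons and muscle. As a list, neuronal adhesion, guidance and synapse genes had a smaller share called higher (15 of 106) than all intervals (21.9%). GRM5, a glutamate receptor of synapses, was at 1.65, 2.45, 37.4 and 42.8 CPM with DMSO and 170, 166, 188 and 198 with SY-351, a log2 fold of 2.19. In GRM5 the DMSO libraries split into a low and a middle pair, both below every treated library. NCAM1, a neural cell adhesion molecule also used as the natural killer cell marker CD56, was at 1.23, 1.2, 13.7 and 12 CPM with DMSO and 58.8, 51.5, 60.9 and 62.3 with SY-351, which gave a log2 fold of 2.21 (SE 0.18; adjusted p = 2.85e-33, edgeR). SGCD, the delta subunit of the sarcoglycan complex of muscle, whose promoter is shown above, was at 1.42, 1.34, 8.96 and 5.38 CPM with DMSO and at 28.7, 31, 31.6 and 37.4 with SY-351, a log2 fold of 2.19. For GRM5, NCAM1 and SGCD no treated library overlapped a DMSO library. SYN3, a synapsin of synaptic vesicles, had a log2 fold of 1.81 and KIRREL3, a synaptic adhesion molecule, 1.53. GRM5 and KIRREL3 were not called with all 8 libraries.

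**Figure D5:**
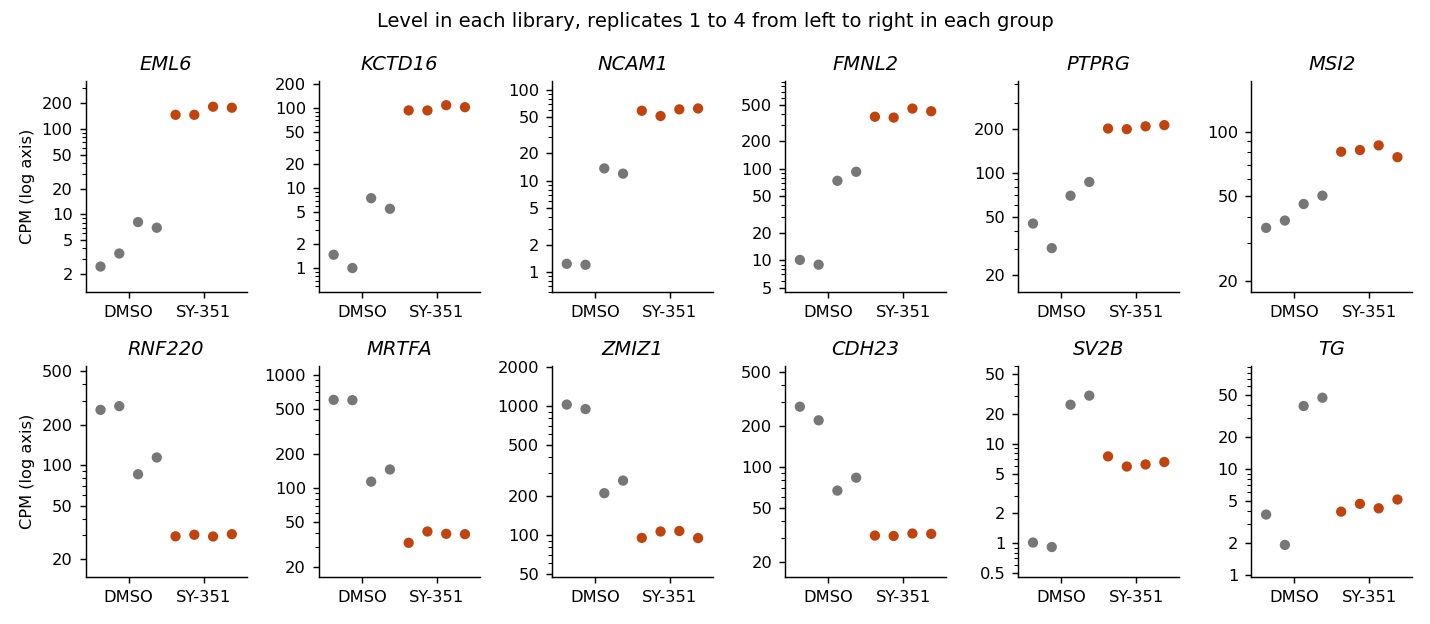
Levels of 12 named long genes in each of the 8 libraries, in TMM-scaled CPM on a log axis; each point is 1 library, replicates 1 to 4 from left to right, grey for DMSO and orange for SY-351. EML6 goes from 2.44 to 8.11 CPM with DMSO to 147 to 183 with SY-351, and TG from 39 and 46.7 in DMSO 3 and 4 to 3.95 to 5.14, the level also seen in DMSO 1 and 2.

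Genes of actin, cilia and protein kinase anchoring were among the other large rises. FMNL2, a formin that builds actin filaments at the cell edge, was at 10.1, 8.96, 74.1 and 93 CPM with DMSO and at 372, 364, 457 and 427 with SY-351. All 4 treated libraries were above all DMSO libraries, and the log2 fold was 2.30 (SE 0.18; adjusted p = 1.63e-35, edgeR) against DMSO 3 and 4 and 3.12 (adjusted p = 0.0355, edgeR) against all 4. Leaving out single libraries ended the FMNL2 call against all 4 in 6 of 8 cases. DYNC2H1, the motor chain of intraflagellar transport, was at 1.13, 0.911, 16.5 and 17.6 CPM with DMSO and at 62.4, 58.4, 65.5 and 83.7 with SY-351, a log2 fold of 2.01. AKAP6, an anchor for protein kinase A best known from the nuclear envelope of muscle cells, was at 2.81, 1.84, 159 and 200 CPM with DMSO and at 830, 655, 655 and 601 with SY-351, which gave a log2 fold of 1.95 (SE 0.18; adjusted p = 4.67e-26, edgeR). DYNC2H1 and AKAP6 were not called with all 8 libraries (adjusted p = 0.0777 and 0.179, edgeR), where the DMSO group spans a low and a middle pair.

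Among the intervals with the most reads per kb, TSPAN9 and PLEKHA7 rose against DMSO 3 and 4. TSPAN9, a tetraspanin of platelets, was at 4.79, 2.35, 220 and 292 CPM with DMSO and at 833, 770, 760 and 755 with SY-351, which gave a log2 fold of 1.63 (SE 0.18; adjusted p = 7.07e-19, edgeR). PLEKHA7, which ties cadherin junctions to microtubules, was at 4.3, 4.83, 172 and 234 CPM with DMSO and at 646, 609, 613 and 594 with SY-351, a log2 fold of 1.62. Neither TSPAN9 nor PLEKHA7 was called with all 8 libraries (adjusted p = 0.221 and 0.184, edgeR). RPS13, a ribosomal protein gene 59973 bases upstream of PLEKHA7 on the same strand, had nearly the same pattern, with 4.96, 2.38, 314 and 440 CPM with DMSO and 824 to 912 with SY-351 (log2 fold 1.22, edgeR adjusted p = 2.08e-11). APP, the amyloid precursor protein, was at 303, 277, 456 and 596 CPM with DMSO and at 1212, 1154, 1117 and 1154 with SY-351. It was above all DMSO libraries in all treated ones, with a log2 fold of 1.16 (SE 0.18; adjusted p = 2.55e-10, edgeR) against DMSO 3 and 4 and 1.51 (adjusted p = 0.0318, edgeR) against all 4. Leaving out single libraries ended the APP call against all 4 in 6 of 8 cases.

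For the other densest members DMSO 1 and 2 lay on the far side. TAOK3, a kinase upstream of p38 and JNK, was at 2530, 2807, 376 and 531 CPM with DMSO and 993, 979, 979 and 969 with SY-351. SH3KBP1, an adaptor of receptor endocytosis, was at 876, 1040, 337 and 429 CPM with DMSO and 802, 698, 750 and 832 with SY-351. Both were above DMSO 3 and 4 (log2 folds 1.13 and 1.03) and had negative folds against DMSO 1 and 2 (-1.59 and -0.46). SND1, a subunit of the RNA-induced silencing complex and transcription coactivator, was at 1071, 1152, 437 and 584 CPM with DMSO and 769, 733, 692 and 676 with SY-351, with log2 folds of 0.51 and -0.78, the first not called by total count (adjusted p = 0.193, edgeR). None of TAOK3, SH3KBP1 and SND1 was called with all 8 libraries.

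Long intervals that fell in both comparisons included RNF220, MRTFA, ZMIZ1, CDH23, PHLPP1, SIPA1L3 and RPTOR. Of these, only RNF220 kept its call against all 4 DMSO libraries whichever single library was left out. RNF220, a ubiquitin ligase, was at 258, 275, 85.5 and 114 CPM with DMSO and at 29.5, 30.3, 29.4 and 30.6 with SY-351. Its treated libraries were nearly equal and all below the DMSO libraries, with a log2 fold of -1.71 (SE 0.15; adjusted p = 3.72e-27, edgeR) against DMSO 3 and 4 and -2.61 (adjusted p = 0.00829, edgeR) against all 4. MRTFA, a coactivator of serum response factor that answers to actin, was at 601, 597, 114 and 146 CPM with DMSO and at 32.9, 41.4, 39.5 and 39.2 with SY-351, which gave a log2 fold of -1.74 (SE 0.15; adjusted p = 3.56e-28, edgeR). ZMIZ1, a transcription cofactor with a SUMO ligase domain, was at 1021, 942, 210 and 263 CPM with DMSO and at 94.6, 106, 107 and 94.3 with SY-351, a log2 fold of -1.21. For MRTFA and ZMIZ1, too, the groups did not overlap.

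Signalling genes followed the same order of libraries. PHLPP1, a phosphatase that switches off AKT, was at 160, 170, 38.9 and 47.2 CPM with DMSO and at 21.1, 24.8, 23.4 and 22.1 with SY-351, which gave a log2 fold of -0.89 (SE 0.15; adjusted p = 3.75e-08, edgeR). SIPA1L3, a Rap GTPase-activating protein, was at 221, 226, 37.3 and 45.3 CPM with DMSO and at 22, 23.4, 24.4 and 22.2 with SY-351, a log2 fold of -0.82. RPTOR, the scaffold of the growth-controlling complex mTORC1, was at 487, 461, 99.5 and 118 CPM with DMSO and at 65.9, 70.2, 66.1 and 65.1 with SY-351, a log2 fold of -0.68. In PHLPP1, SIPA1L3 and RPTOR the DMSO 3 and 4 libraries lay between DMSO 1 and 2 and the treated ones. KANK1, a regulator of actin polymerization, was at 15.6, 16.4, 19.6 and 21.1 CPM with DMSO and at 8.77, 9.2, 8.63 and 9.28 with SY-351, which gave a log2 fold of -1.16 (SE 0.16; adjusted p = 1.25e-11, edgeR). It was 1 of the fallers in which all 4 DMSO libraries were close together. DOCK8, which ends 5031 bases upstream on the same strand, had a log2 fold of -0.11 (edgeR adjusted p = 0.616). KCNMB2, a potassium channel subunit, was at 31.7, 23.8, 4.89 and 3.07 CPM with DMSO and 2.05 to 3.04 with SY-351, and its call against DMSO 3 and 4 (log2 fold -0.73, adjusted p = 0.00852, edgeR) ended without DMSO 3 (adjusted p = 0.224, edgeR).

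Of the 10 largest falls named against DMSO 3 and 4, 6 lay in intervals that overlap a gene on the opposite strand, and in 5 of these the gene opposite fell as well. The counting used a strand setting, but whether the kit kept strand is not given in the sources used here, so reads of the 2 genes of such a pair cannot be told apart. TG, the thyroglobulin gene, was at 3.71, 1.92, 39 and 46.7 CPM with DMSO and at 3.95, 4.68, 4.25 and 5.14 with SY-351, which gave a log2 fold of -3.23 (SE 0.16; adjusted p = 1.13e-89, edgeR). SLA, a Src-like adaptor of blood cells inside TG on the other strand, was at 2.38, 1.22, 35.5 and 45.1 CPM with DMSO and at 2.35, 2.67, 2.31 and 3.02 with SY-351, a log2 fold of -3.94 (edgeR adjusted p = 1.02e-119). In both genes DMSO 1 and 2 were at the level of the treated libraries, and neither was called with all 8. CDH23, a cadherin of the hair cell tip link, was at 277, 220, 67 and 83.3 CPM with DMSO and at 31.3, 31.1, 32.4 and 32.2 with SY-351. The immune checkpoint gene VSIR, inside CDH23 on the other strand, was at 272, 215, 61.2 and 79.2 CPM with DMSO and at 24.7, 23.5, 23 and 23.8 with SY-351. The log2 folds were -1.22 for CDH23 and -1.54 for VSIR.

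The same held for SPAG17, PRKG1 and PHACTR1. SPAG17, a protein of the ciliary central pair, had a log2 fold of -1.99, and the ribosome assembly gene WDR3 opposite it -2.33. PRKG1, a cGMP-dependent protein kinase, was at 4.85, 5.2, 50.3 and 57.2 CPM with DMSO and 22.9 to 26.5 with SY-351, a log2 fold of -1.12. Opposite to it, the mRNA cleavage factor gene CSTF2T was at 0.522, 0.646, 39.1 and 52.1 CPM with DMSO and 12.7 to 14.4 with SY-351, a log2 fold of -1.72. PHACTR1, a protein phosphatase and actin regulator, had a log2 fold of -1.80 and the TBC1D7 row opposite it -1.20. SPAG17, PRKG1 and PHACTR1 had positive folds with DMSO 1 and 2 as the only controls (3.20, 2.13 and 1.32), as did TG (0.53) and SV2B (2.61). SV2B, a synaptic vesicle protein with no overlapping row, was at 1.01, 0.911, 24.7 and 30.5 CPM with DMSO and at 7.45, 5.89, 6.18 and 6.54 with SY-351, which gave a log2 fold of -2.06 (SE 0.16; adjusted p = 2.29e-35, edgeR). MRTFA overlaps SGSM3 on the other strand, which had the opposite sign (log2 fold 0.50, edgeR adjusted p = 0.00524). Of the dense members, 10 of the 51 called lower (19.6%) and 20 of the 202 called higher (9.9%) overlapped an opposite-strand row. Without the 91 members that do, 262 were called higher and 55 lower against DMSO 3 and 4 and the matched difference was 0.27, an alternative added after seeing the data.

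By function, members of 11 gene lists were counted against DMSO 3 and 4, where 21.9% of all intervals were called higher and 26.4% lower and the median log2 fold was 0.01. Of the list genes named below, SYNE1, ABCA13, SLC35F1, CACNA1E, PDE4D, ERBB4, PTPRG, PRKCB, ADK, NR6A1, MSI2, FHIT and IMMP2L were also called higher with all 8 libraries, and CDH23, RNF220 and ARID1B lower, beside those described above. By total count ASH1L, ERBB4, GAB2, UTRN and WWOX were not called (adjusted p from 0.0901 to 0.465, edgeR). Counts called are over all members of a list, beside 26.2% higher and 6.08% lower of all 1102 members. Medians below are for the members with at least 20 counts per kb. For all 458 such members the median was 0.31, and -0.13 by total count. Cytoskeleton, polarity and adhesion scaffolds had 22 of 77 higher and 4 lower. Beside EML6, FMNL2, PLEKHA7 and DYNC2H1 they included SYNE1 (log2 fold 1.57), which links the nucleus to actin, MYO5A (0.81), a cargo-carrying myosin, and UTRN (0.68), the relative of dystrophin. FRMD4B (-0.72) and the microtubule-end protein CLASP1 (-0.59) were among those lower. The median was 0.31, and -0.14 by total count. Ion channels and membrane transporters had 16 of 65 higher, with the lipid flippase ATP8B4 (1.45), ABCA13 (1.26), the transporter family member SLC35F1 (1.21) and the calcium channel CACNA1E (1.02), and 1 lower, the potassium channel KCNH1 (-0.86). Their median was 0.57, and 0.15 by total count.

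Neuronal adhesion, guidance and synapse genes were the largest list, with 106 members of which only 15 had at least 20 counts per kb. Of the 106, 15 were higher and 4 lower, the latter CDH23, UNC5D, ERC1 and UNC5C. The dense ones had a median of 0.68, and 0.22 by total count. Phosphodiesterases, lipid signalling and calcium release genes had 10 of 38 higher and 1 lower, with a dense median of 0.48, and 0.06 by total count. PDE4D, which breaks down cyclic AMP, was at 15.1, 17.1, 38.8 and 33.8 CPM with DMSO and at 118, 119, 139 and 147 with SY-351, which gave a log2 fold of 1.87 (SE 0.18; adjusted p = 4.66e-25, edgeR). The diacylglycerol kinase DGKI (1.33) and the inositol phosphatase INPP5A (0.89) were also higher, and the phospholipase PLCH1 (-0.88) lower.

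Kinases and phosphatases had 12 of 57 higher and 3 lower, with a dense median of 0.17, and -0.27 by total count. The receptor tyrosine kinase ERBB4 (1.52), the death-associated kinase DAPK1 (1.49), the receptor phosphatase PTPRG (1.41), the protein kinase C isoform PRKCB (1.04) and adenosine kinase ADK (1.03) were higher, and the Src family kinase FYN (-0.81) was lower. Transcription factors had 8 of 42 higher, led by NR6A1 (1.56), an orphan nuclear receptor of germ cells, and the leukaemia-associated MECOM (1.54). Only TCF12 (-0.41), a partner of bHLH factors, was lower, and the dense median was 0.15, and -0.30 by total count. Chromatin regulators and cofactors had 10 of 34 higher, with ATXN1 (1.28), AFF2 (0.87) and the histone methyltransferase ASH1L (0.69), and 2 lower, the SWI/SNF subunit ARID1B (-0.63) and the remodeller CHD6 (-0.50). The dense median was 0.11, and -0.31 by total count.

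RNA-binding, cell cycle and genome maintenance genes had 8 of 33 higher and 0 lower, with a dense median of 0.19, and -0.25 by total count. POLA1, the catalytic subunit of the polymerase that primes DNA replication, was at 3.35, 3.26, 116 and 162 CPM with DMSO and at 278, 267, 272 and 257 with SY-351, a log2 fold of 0.97. MSI2, an RNA-binding regulator of blood stem cells, was at 35.5, 38.4, 45.9 and 50.2 CPM with DMSO and 80.6, 82.1, 86.3 and 76 with SY-351, which gave a log2 fold of 0.78 (SE 0.17; adjusted p = 1.03e-05, edgeR). MSI2 was higher in every treated library than in every DMSO library, and NSMCE2 (0.98), a SUMO ligase of the SMC5/6 complex, and the DNA repair gene MGMT (0.76) were higher as well.

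Ubiquitin and proteolysis genes had 9 of 25 higher, with the autophagy gene ATG10 (1.13) and the tumour suppressor FBXW7 (0.93), and 6 lower, with RNF220, UBR3 (-0.71) and BIRC6 (-0.64). Their dense median was 0.25, and -0.18 by total count. DOCK2, the Rac activator of blood cell migration, was at 100, 102, 283 and 354 CPM with DMSO and at 622, 631, 615 and 606 with SY-351, which gave a log2 fold of 0.98 (SE 0.17; adjusted p = 4.95e-08, edgeR). Its groups did not overlap. INSYN2B, opposite to it, rose as well (log2 fold 1.44), while PREX1, another Rac activator, at 374, 358, 120 and 154 against 158, 158, 160 and 156 CPM, was not called, and was lower by total count (log2 fold -0.20, adjusted p = 0.00513, edgeR). Haematopoietic and immune signalling genes had 10 of 28 higher, among them MECOM, PRKCB, GAB2 (0.62) and ARHGAP15 (0.96), and 3 lower, FYN, the exchange factor VAV3 (-0.49) and CBLB (-0.43). Their dense median was 0.20, and -0.22 by total count.

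Common fragile site genes, the longest list by nature, had 18 of 48 higher and 1 lower, PRKG1, with a dense median of 0.79, and 0.35 by total count. PTPRG was at 44.9, 30.5, 69.5 and 86.3 CPM with DMSO and at 200, 198, 207 and 211 with SY-351, which gave a log2 fold of 1.41 (SE 0.17; adjusted p = 1.32e-15, edgeR). FHIT, a diadenosine triphosphatase in the most active fragile site, was at 25.3, 31.6, 29.9 and 23 CPM with DMSO and at 48.9, 48.4, 48.3 and 59.9 with SY-351, which gave a log2 fold of 0.98 (SE 0.17; adjusted p = 2.61e-08, edgeR). Here the 4 DMSO libraries were alike and all below the treated ones, while by total count the log2 fold was 0.50 and not called (adjusted p = 0.108, edgeR). CCSER1 (1.37), the mitochondrial protease gene IMMP2L (1.01) and WWOX (0.60), an oxidoreductase at another fragile site, were higher. FOXP1, a forkhead repressor, was at 78, 79.3, 15 and 15.3 CPM with DMSO and 24.9, 27.4, 28.3 and 48.9 with SY-351. Its log2 fold was 1.12 against DMSO 3 and 4, where the call ended without either of them (largest adjusted p = 0.181, edgeR) and by total count (adjusted p = 0.149, edgeR), and -1.43 against DMSO 1 and 2.

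The 5 longest members, PTPRD, DMD, DLG2, CSMD1 and LRP1B, all had under 20 counts per kb. DMD, the dystrophin gene, was at 13.8, 14.6, 21.9 and 16.2 CPM with DMSO and at 24.7, 22.9, 24.8 and 43 with SY-351. It was called higher against DMSO 3 and 4 (log2 fold 0.62, adjusted p = 0.000471, edgeR), and the call ended without DMSO 3, DMSO 4 or SY-351 4, the last with a log2 fold of 0.34 (adjusted p = 0.142, edgeR), and by total count (adjusted p = 0.808, edgeR). CSMD1, a complement regulator, at 8.13, 8.09, 20 and 12.1 against 19.3, 16.2, 19.2 and 26.2 CPM, and LRP1B, a lipoprotein receptor, at 8.56, 10.6, 24 and 10.5 against 18.8, 17.7, 21.1 and 27.9 CPM, were not called. In both the groups overlapped through DMSO 3.

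SY-351 4, the library with the lowest total, was high in a small set of long intervals. It was at least 2 times every other treated library in 25 of the 1102 members (2.27%), against 0, 0 and 1 for SY-351 1 to 3. Over all 15814 intervals tested it was so in 433 (2.74%), so that the share among the long intervals was near the background. The adaptor gene PID1 was at 64.4, 65.5 and 66.1 CPM in SY-351 1 to 3 and at 2569 in SY-351 4, beside 50.7, 52.9, 7.89 and 8.78 with DMSO. Its log2 fold against DMSO 3 and 4 was 6.40 (adjusted p = 0.178, edgeR), and 2.97 (adjusted p = 2.14e-41, edgeR) without SY-351 4. DLG2, a scaffold of synapses, was at 40.3, 38.2, 42.9 and 376 CPM with SY-351 and 11.9, 14.3, 25.4 and 17.6 with DMSO. PTPRD, a receptor phosphatase and the longest member, was at 35.1, 34, 35.5 and 173 CPM with SY-351 and 19.7, 22, 26.4 and 17.1 with DMSO. The log2 folds were 2.56 for DLG2 and 1.70 for PTPRD with that library and 0.91 and 0.68 without it, called against DMSO 3 and 4 only without it. DPP10, a regulator of potassium channels, went from 2.00 to 1.06 in the same way, with 251 CPM in SY-351 4 and 49.9 to 59 in the other treated libraries. PDE3A (576 CPM against 29 to 45.4) and the calcium release channel RYR2 (100 against 8.82 to 9.35) belonged to the same set and were not called either way.

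MNAT1, the partner of CDK7, is itself a long gene (chr14, 60734760 to 60969964). It was at 1.95, 1.51, 23.2 and 28.5 CPM with DMSO and at 23.6, 23.8, 24 and 25.7 with SY-351, so that DMSO 3 and 4 enclosed the treated libraries. Its log2 fold was -0.07 (edgeR adjusted p = 0.775, SE 0.16) against DMSO 3 and 4, 0.82 (SE 0.89) against all 4 and 3.66 against DMSO 1 and 2. CDK6, a cell cycle kinase, was at 202, 261, 233 and 318 CPM with DMSO and at 304, 319, 309 and 294 with SY-351, which gave a log2 fold of 0.17 (SE 0.16; adjusted p = 0.417, edgeR). RUNX1, the core transcription factor of blood formation, was at 599, 694, 129 and 172 CPM with DMSO and at 153, 174, 172 and 145 with SY-351, which gave a log2 fold of 0.12 (SE 0.16; adjusted p = 0.60, edgeR). MNAT1, CDK6 and RUNX1 overlapped between groups in both comparisons. IGF1R (-0.10), the insulin-like growth factor receptor, and MAD1L1 (-0.11), a spindle checkpoint protein, were not called either. By total count MNAT1 (-0.50), CDK6 (-0.25), RUNX1 (-0.30), IGF1R (-0.52) and MAD1L1 (-0.54) were all called lower (adjusted p from 4.88e-05 to 0.0149, edgeR). MRM2, a mitochondrial rRNA methyltransferase gene 1278 bases upstream of MAD1L1, fell (log2 fold -1.56, edgeR adjusted p = 4.94e-23).

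Dense members called higher, called lower and not called against DMSO 3 and 4 were compared by their features. By length, which the rule itself used, those higher had a median of 305316 bases, those lower 259016 and those not called 274161. The median exon number was 18, 22 and 18, and the exonic share of the interval 1.41%, 2.49% and 1.91%. A same-strand neighbour ending within 50 kb upstream was present for 83 dense members. Of these, 41% were higher and 13.3% lower, beside 44.8% and 10.7% of the 375 without one. Processed pseudogenes, intronless copies of other genes, lay inside 265 of the dense members. Of those, 46.8% were higher and 8.68% lower (median log2 fold 0.34), beside 40.4% and 14.5% (0.24) of the 193 without one. Longer intervals hold more of them. Within 200 to 300 kb the shares were 40% and 11% with a pseudogene and 33.3% and 17.9% without. Whether reads came from these copies was not tested.

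Splicing was measured by the authors in a separate table of local splicing variations, each a set of junctions or introns that share a splice site, with an expected inclusion and a posterior probability that it differs by at least 0.20 between the groups. Long genes listed in the authors' deposited table numbered 182, and 107 of them (58.8%) had a variation past a probability of 0.95. The share was 64.7% of all 3117 genes matched in both tables, and 65.4% of 1642 genes of 20 to 100 kb. Variations that include a retained intron were a smaller share in long genes, 20 of 334 (5.99%) in the authors' deposited table, beside 14.1% at 20 to 100 kb and 18% in all. Of the long genes' introns, 7 passed 0.95 in the authors' deposited table, 2 with higher retention with SY-351 and 5 with lower, beside 104 higher and 250 lower of 354 introns over all genes, much the same split. Among the 107 genes, 40 had an interval called higher against DMSO 3 and 4, 16 lower and 51 not called. Of the 107, 100 had at least 20 counts per kb. Of all 458 members at that density 44.1% were higher and 11.1% lower.

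The largest change of each gene was a junction in 103 of the 107 and an intron in 4. In the authors' deposited table, an intron of COP1, a ubiquitin ligase, went from 95.2% inclusion in control to 0.2% with SY-351, in a gene whose interval fell (log2 fold -0.64, edgeR adjusted p = 0.000131). An intron of RPS6KC1, a ribosomal S6 kinase-like gene, went the other way in the authors' deposited table, from 11.2% to 83.3%, with an interval log2 fold of 0.01. A junction of FYN went from 0.2% to 82.1% in the authors' deposited table, and junctions of the aminopeptidase gene AOPEP from 97.2% to 14.6% and of the zinc finger gene ZNF804A from 82% to 0.5%. AOPEP rose (log2 fold 1.23) and so did ZNF804A (0.85), while FYN fell (-0.81). RUNX1, whose level was not called, had a junction that went from 72.2% to 12.1% in the authors' deposited table, and SIPA1L3, which fell, 1 that went from 7.6% to 71.8%. Which samples entered that table is not given in the sources used here beyond a folder name that says outliers were left out.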

How the data were processed

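Read counts per interval were deposited as whole numbers, made by the authors with featureCounts 1.6.2 at strand setting 1, per the file headers. Interval lengths, an other kind of value, are those the authors deposited in the same table. The genome build is GRCh38, and DESeq2 is named, per the submitters' processing notes. The aligner, the strandedness of the kit and how technical repeats entered a column are not given in the sources used here. A second table, of splicing, which the authors deposited, gives inclusion from 0 to 1, a posterior probability and a score (the expected difference), with column names as in MAJIQ output, per the file headers. It lies on another build, so none of its coordinates are printed.

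Symbols came from RefSeq for 1097 members and from GENCODE for 4, and 1 stayed unmatched. All rows were fitted with edgeR 4.0.16 in R 4.3.3 (TMM, filterByExpr, robust quasi-likelihood test, two-sided, Benjamini-Hochberg adjusted p below 0.05, group as the only term), once with 8 libraries and once without DMSO 1 and 2. The SE of a fold was taken as its size over the square root of its F statistic. The test shares information on spread between rows, so a very small adjusted p does not rest on a gene's own libraries alone. For EML6 against DMSO 3 and 4 the adjusted p was 3.04e-101 with TMM and 9.15e-06 by total count (edgeR). The fits were tested on simulated data with the spread of these libraries, and the sizes of the simulated folds were recovered in both comparisons. Against DMSO 3 and 4, 60 of 100 2-fold changes and 89 of 100 4-fold changes were called. With all 8 libraries 0 of 100 were called at either size. The lack of a call with all 8 libraries therefore says little about a gene. Depth was 43.3 to 124.2 M counts a library. The matching, lists and features are descriptions with no test.

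Named genes were, among members past the threshold with no overlap and a mean of at least 1 CPM, the 8 (all libraries) and 10 (DMSO 3 and 4) largest folds each way, the 5 longest, the 6 densest, the 2 highest of each list, and MNAT1, CDK6, RUNX1, FOXP1, MSI2 and FHIT. Some of the genes and lists chosen in this way are not reported here. List members beside these, PID1, PDE3A, RYR2, the neighbours and the splicing examples were picked with their values known. The members, lists and rules were chosen with earlier results of these data known. Alternatives were DESeq2 1.42.0, other scalings, no filter, a replicate block, leaving out each library, a 2-fold limit, other length and count limits, another matching and other comparison intervals. The density split and its limit read from other libraries, DMSO 1 and 2 as the only controls, and leaving out opposite-strand overlaps were added after seeing the data.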

Additional observations from a re-analysis of the deposited data

Results flagged for a closer look

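In 108 groups of 4 libraries, those of the 54 named genes, 9 had 1 library whose gap to the next, as a share of the group's whole range, was above Dixon's 95% critical value. Chance would give about 1 in 20 for independent groups of normally spread values. The 108 groups share the same libraries, and many of the genes were chosen by their values. That rate is therefore no fair reference for the count. In 8 of the 9 that library was SY-351 4, at the high end. The gap was 0.989 of the range in PTPRD, 0.986 in DLG2, 0.955 in DPP10, 0.953 in FHIT, 0.907 in DMD, 0.86 in FOXP1, 0.838 in KCNMB2 and 0.834 in MNAT1. In LRP1B the library was DMSO 3, also high, with 0.867. Over all 1102 members, SY-351 4 stood apart at the high end in 138 (12.5%) and DMSO 3 in 219 (19.9%). The share over all intervals was not counted for this measure, so whether it is particular to long intervals was not tested. By the 2-fold measure given above, SY-351 4 was high in 2.27% of members and 2.74% of all intervals.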

How the results depend on the processing

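With all 8 libraries, 44 long intervals higher and 15 lower became 12 and 24 by total count, 186 and 46 by the DESeq2 Wald test, 29 and 5 at 300 kb or more, 10 and 1 under 20 counts per kb, and 36 lower at 150 kb or more. Leaving out 1 library gave 6 to 440 higher and 1 to 44 lower. Against DMSO 3 and 4, 289 and 67 became 129 and 223 by total count, 749 and 136 against DMSO 1 and 2 alone, 167 and 26 at 300 kb or more, 87 and 16 under 20 counts per kb, 83 and 33 with that limit read from DMSO 1 and 2, 81 and 13 at 2-fold, and 136 lower at 150 kb or more. Leaving out 1 library gave 229 to 664 higher (664 without DMSO 3) and 47 to 216 lower (216 without DMSO 4); the 1 DMSO library left is then assumed to vary like the treated ones. The cause of these moves was not tested, apart from fewer or more intervals at other limits.

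The matched difference went from 0.50 to -0.19 under 20 counts per kb and to 0.33 to 0.77 without 1 library. Against DMSO 3 and 4 it went from 0.28 to -0.50 under 20 counts per kb and to -0.05 to 0.77 without 1 library. Matching on counts per kb gave 0.26 and 0.17 in place of 0.50 and 0.28, and 50 to 100 kb intervals gave 0.24 and 0.12. DESeq2 size factors, no filter, a summed count of 1000 and leaving out overlapping rows kept its sign in both comparisons.

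Correlations of same-numbered deviations were -0.016, -0.041, 0.006 and -0.176. The DMSO libraries differ widely among themselves, which can hide a pairing. These values therefore cannot decide whether the replicate numbers pair the libraries. A replicate block in edgeR gave 0 higher and 0 lower with all 8 libraries (169 and 16 at an unadjusted p below 0.05) and 120 and 13 against DMSO 3 and 4. The matched difference with the block was 0.34 and 0.44.

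By total count, folds against DMSO 3 and 4 changed sign in CDK6 (-0.25), CERS6 (-0.19), PREX1 (-0.20) and RUNX1 (-0.30), which were then called lower, as were IGF1R, MAD1L1 and MNAT1; the calls on DMD, FHIT, FOXP1, GNAQ, RERE and SND1 ended (adjusted p from 0.108 to 0.808, edgeR). Against DMSO 1 and 2 alone they changed sign in CUX1 (-0.95), FOXP1 (-1.43), GNAQ (-0.28), PREX1 (-1.36), RERE (-2.06), RUNX1 (-2.15), SH3KBP1 (-0.46), SND1 (-0.78), TAOK3 (-1.59), MNAT1 (3.66), PHACTR1 (1.32), PRKG1 (2.13), SPAG17 (3.20), SV2B (2.61) and TG (0.53). Of the named calls, 34 of 40 against DMSO 3 and 4 and 4 of 21 with all 8 held without every 1 library in turn; GNAQ and RERE were among the 6 lost against DMSO 3 and 4. Thin coverage limits the 644 members under 20 counts per kb.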
